A study of Mus musculus with 28 samples.

Results

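Transcripts of 10 genes best known from the stomach, Cym, Muc5ac, Gkn1, Gkn2, Gkn3, Tff1, Tff2, Ctse, Anxa10 and Psca, were followed in mouse small-intestinal organoids given single ligands of the Tgfb superfamily. They were chosen by name, from values already seen in these libraries, to set ligand effects such as that on Cym apart from genes that were high in a whole replicate series. They are 10 of 29413 genes in the table of BMP-treated samples and 10 of 55416 in the table of Tgfb-treated samples. The organoids are crypt-derived epithelial cultures of wild-type C57BL/6 mice, first grown without added BMP or Tgfb. Untreated organoids and organoids with recombinant BMP2 made up 4 samples each of the BMP table, and recombinant BMP3, BMP4, BMP5 and BMP7 made up 3 samples each. A separate TGFb table held 3 untreated samples of its own and 3 that had received recombinant Tgfb. Every ligand was used at 500 ng/ml for 24 h. The title of the series puts the question as how enterocytes of the villus tip reach their final state under different ligands. The 2 mesenchymal samples among the 28 of the series were not used.

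Roman numerals in the sample titles give the replicate, and samples that carry the same numeral are called a series here. Series II and III held all 6 groups of the BMP table. Series IV held an untreated, a BMP2 and a BMP3 library, and series VI held the untreated, BMP2, BMP4, BMP5 and BMP7 libraries. Nothing in the labels says whether replicates came from separate mice or separate cultures, so p-values measure the spread between these samples, which may be technical. Depth in the BMP table was 21356911 to 24781522 recovered reads per sample. There 1 read was worth 0.826 to 1.28 normalized counts, which are counts divided by 1 size factor per sample. A value of 0 allows up to 3 reads, or 2.48 to 3.84 normalized counts depending on the sample, and this floor covers counting error only. The TGFb table is in TPM (transcript abundance per length, with the same total in every sample), which keeps no depth. In such bulk libraries, fewer cells that express a gene and less of its RNA per cell cannot be told apart.

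The surface of the stomach is lined by mucous cells that secrete the gel-forming mucin Muc5ac, the gastrokines Gkn1 and Gkn2 and the trefoil peptide Tff1, while mucous neck cells deeper in the gland make Tff2 and Gkn3. Cathepsin E (Ctse) and chymosin (Cym) are aspartic proteases, the latter the milk-clotting enzyme of young mammals, and annexin A10 (Anxa10) and the surface antigen Psca are further genes of gastric epithelium. In the embryonic gut, BMP signals and the transcription factor Cdx2 take part in setting the boundary between stomach and intestine. BMP2, BMP4, BMP5 and BMP7 act through receptors that phosphorylate Smad1, Smad5 and Smad8, whereas Tgfb acts through Smad2 and Smad3. BMP3 differs from most of the family in that it can oppose other BMPs.

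Promoter sequences were at hand for 5 of the 10 genes, from RefSeq on the mouse build GRCm38.p6. They are shown because Gkn1 and Gkn2 moved together while their neighbour Gkn3 did not move with them, and because Cym, Gkn3 and Anxa10 were among the genes with the ligand differences described further on. Each run is the 250 bases before the start of the gene, 5′ to 3′ on the gene's own strand. Capitals mark any of 3 short motifs searched on both strands: CAGAC (a Smad-binding element), GGAGCC (a GC-rich element bound by Smads downstream of BMP receptors) and TGANTCA (the AP-1 motif). The motifs did not overlap in these windows.
Cym, chr3:107221733-107221982, minus strand: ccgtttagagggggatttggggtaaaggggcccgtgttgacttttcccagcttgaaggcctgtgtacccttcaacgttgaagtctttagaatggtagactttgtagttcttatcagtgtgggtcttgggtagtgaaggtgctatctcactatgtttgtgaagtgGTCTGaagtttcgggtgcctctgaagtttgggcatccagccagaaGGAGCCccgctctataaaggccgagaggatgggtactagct
Gkn1, chr6:87350916-87351165, minus strand: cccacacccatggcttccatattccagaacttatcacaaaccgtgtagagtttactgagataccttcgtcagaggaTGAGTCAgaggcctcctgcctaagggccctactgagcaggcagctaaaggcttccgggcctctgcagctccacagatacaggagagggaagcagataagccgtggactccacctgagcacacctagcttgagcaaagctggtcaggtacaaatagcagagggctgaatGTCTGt
Gkn2, chr6:87373115-87373364, plus strand: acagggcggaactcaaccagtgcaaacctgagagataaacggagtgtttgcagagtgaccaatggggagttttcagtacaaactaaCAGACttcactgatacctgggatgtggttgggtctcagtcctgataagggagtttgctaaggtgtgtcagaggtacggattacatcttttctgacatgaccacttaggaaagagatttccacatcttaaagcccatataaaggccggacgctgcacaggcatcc
Gkn3, chr6:87388936-87389185, minus strand: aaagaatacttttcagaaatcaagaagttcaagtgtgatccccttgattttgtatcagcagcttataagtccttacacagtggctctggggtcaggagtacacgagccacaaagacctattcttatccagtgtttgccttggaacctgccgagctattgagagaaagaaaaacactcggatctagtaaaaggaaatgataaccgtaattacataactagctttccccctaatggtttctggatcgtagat
Anxa10, chr8:62123194-62123443, minus strand: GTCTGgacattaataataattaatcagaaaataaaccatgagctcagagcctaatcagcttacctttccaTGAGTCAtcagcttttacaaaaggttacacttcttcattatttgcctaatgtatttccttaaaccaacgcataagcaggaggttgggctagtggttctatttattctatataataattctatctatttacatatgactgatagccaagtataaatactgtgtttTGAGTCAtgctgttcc
CAGAC was found in 4 of the 5 windows, against 42.2% of 32851 RefSeq windows of the same length. GGAGCC was found in the Cym window, 36 to 41 bases before its start, against 26% of all windows. TGANTCA was found once in the Gkn1 window and 2 times in the Anxa10 window, against 6.75% of all windows. The Gkn3 window held none of the 3. These are matches of letters and show no binding. The windows of Muc5ac, Tff1, Tff2, Ctse and Psca were not used here.

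Transcripts of intestinal genes were present in every library. The intestinal transcription factors Cdx1 and Cdx2 lay between 334 and 2380 and between 1030 and 4200 normalized counts over the 20 BMP-table libraries. The brush-border protein villin (Vil1) lay between 8880 and 53200 there. All 16 genes of an intestinal identity list passed the low-value filter in that table, a mean of at least 10 normalized counts. So did all 10 gastric transcripts and 14746 of the 29413 genes, so passing it does not set intestinal genes apart. Of a list of gastric surface and identity genes, Sox2 and Barx1 reached at most 1.77 and 2.35 normalized counts. Of a list of gastric gland genes, Pga5 (a pepsinogen of chief cells) and Cblif (gastric intrinsic factor of the gland) reached at most 2.49 and 3.65. These low genes were picked after their values were seen, and others of the same lists were present in every library. Foxq1 lay between 462 and 8750, Cldn18 between 68.4 and 1040 and Vsig1 between 45.6 and 1360. Among gland genes, Pgc lay between 14.1 and 191 and Ghrl between 130 and 594.

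Series IV stood apart from the other series by its surface mucous transcripts, and 1 further library, BMP4 of series VI, shared part of that difference. Over 14746 genes, the deviations of BMP4 VI from its group mean correlated at 0.201 to 0.298 with those of the 4 other series VI libraries. They correlated at -0.0169 to 0.131 with those of the 3 series IV libraries. These are descriptions over genes that share a library, with no test. Fits without series IV and BMP4 VI together, and fits without BMP4 VI that keep the replicate number as a block, were added after the values had been seen. Since BMP4, BMP5 and BMP7 had no series IV library, a group mean over all replicates sets groups with a series IV library against groups that have none.

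Muc5ac, the gel-forming mucin of the gastric surface, was at 4.44, 0, 680 and 0 normalized counts in untreated II, III, IV and VI. With BMP2 it was at 5.68, 0, 618 and 0 in the same order. With BMP3 it was at 7.11, 0 and 1440 in II, III and IV. The 3 series IV libraries thus lay at 618 to 1440, and no other library of these 3 groups exceeded 7.11. With BMP4 Muc5ac was at 2.37, 0 and 116 in II, III and VI. With BMP5 it was at 0, 0 and 4.56, and with BMP7 at 0 in all 3 libraries. Outside series IV, BMP4 VI was thus the single library above 7.11, and the series VI libraries of the other 4 groups were at 4.56 or less.

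Gkn1 and Gkn2, secreted gastrokines of the same surface cells, were high in the same libraries. Gkn1 was at 9.77, 0, 453 and 1.65 in untreated II, III, IV and VI, and at 2.27, 8.95, 260 and 2.53 with BMP2. It was at 18.7, 0 and 1140 with BMP3 (II, III, IV) and at 1.19, 2.28 and 140 with BMP4 (II, III, VI). With BMP5 it was at 0, 0 and 2.74, and with BMP7 at 1.81, 0 and 0. The BMP3 library of series IV held the highest Gkn1 value and the BMP4 library of series VI the highest outside series IV. Gkn2 was at 6.22, 0.83, 680 and 0.826 in untreated II, III, IV and VI, and at 3.41, 2.56, 331 and 1.27 with BMP2. It was at 25.8, 0 and 1560 with BMP3 (II, III, IV) and at 0, 2.28 and 176 with BMP4 (II, III, VI). With BMP5 and BMP7 it was at 1.92 or less in all 6 libraries. The 3 libraries of series IV lay above all others for Gkn1 and Gkn2 alike.

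**Figure D1:**
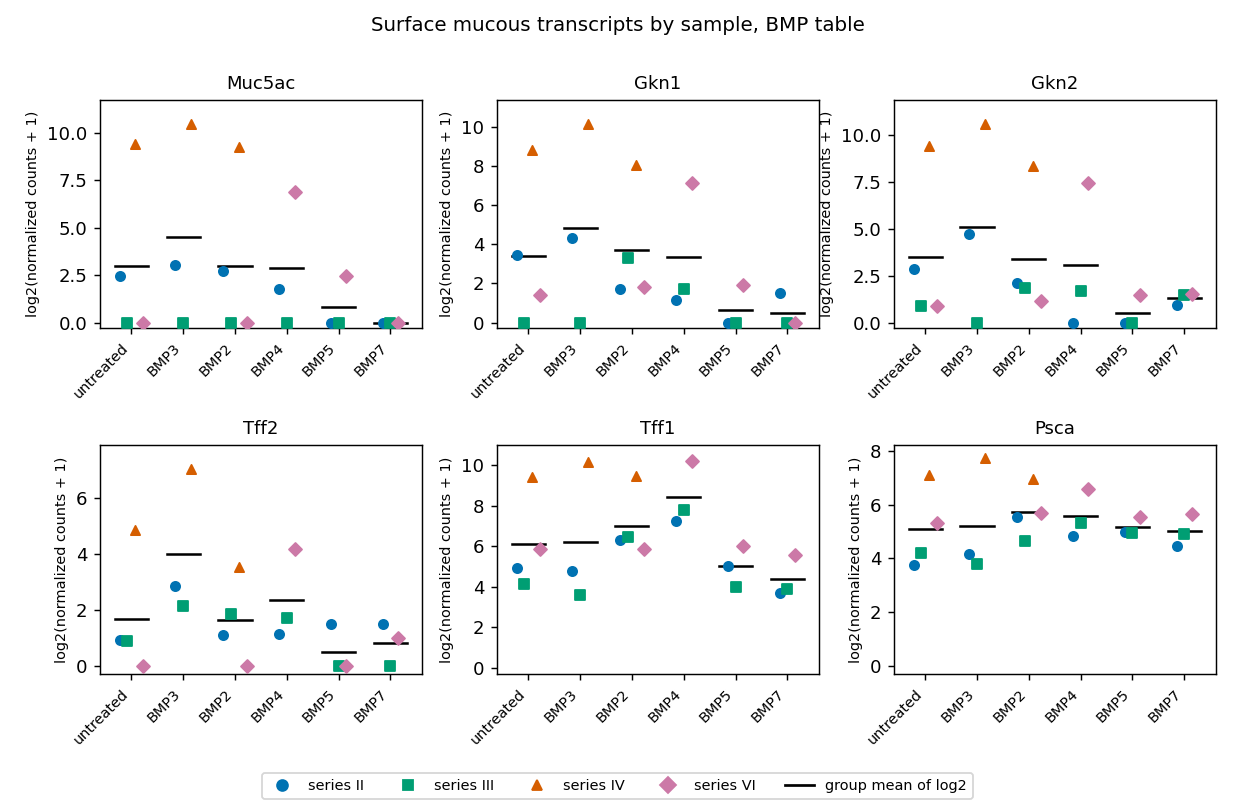
Normalized counts of 6 transcripts of the gastric surface and neck cells, on the log2(value + 1) scale, in each of the 20 libraries of the BMP table. Points are libraries, coloured by replicate series, and bars are group means of the log2 values; series IV (orange triangles) lies highest in each of its 3 groups, and BMP4 of series VI (pink diamond) lies highest among the BMP4 libraries.

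Within the 4 libraries that carried them, Gkn1 and Gkn2 kept a narrow ratio and the other transcripts did not. Gkn1 per Gkn2, as a ratio of normalized counts, was 0.666 in untreated IV, 0.786 in BMP2 IV, 0.731 in BMP3 IV and 0.795 in BMP4 VI. Muc5ac per Gkn2 was 1, 1.87, 0.923 and 0.659 in the same libraries. Tff1 per Gkn2 was 0.997, 2.1, 0.737 and 6.59. BMP4 VI therefore held more Tff1 for its Gkn2 than the 3 series IV libraries did, while its Gkn1 per Gkn2 was close to theirs. Across the 20 libraries, Pearson's r of log2(value + 1) was 0.973 between Gkn1 and Gkn2 and 0.960 between Muc5ac and Gkn2. These correlations rest mainly on 4 libraries and are given as descriptions. The genes most like Gkn2 in level over the 20 libraries were Gkn1, Muc5ac and Tff2 (r = 0.888).

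**Figure D2:**
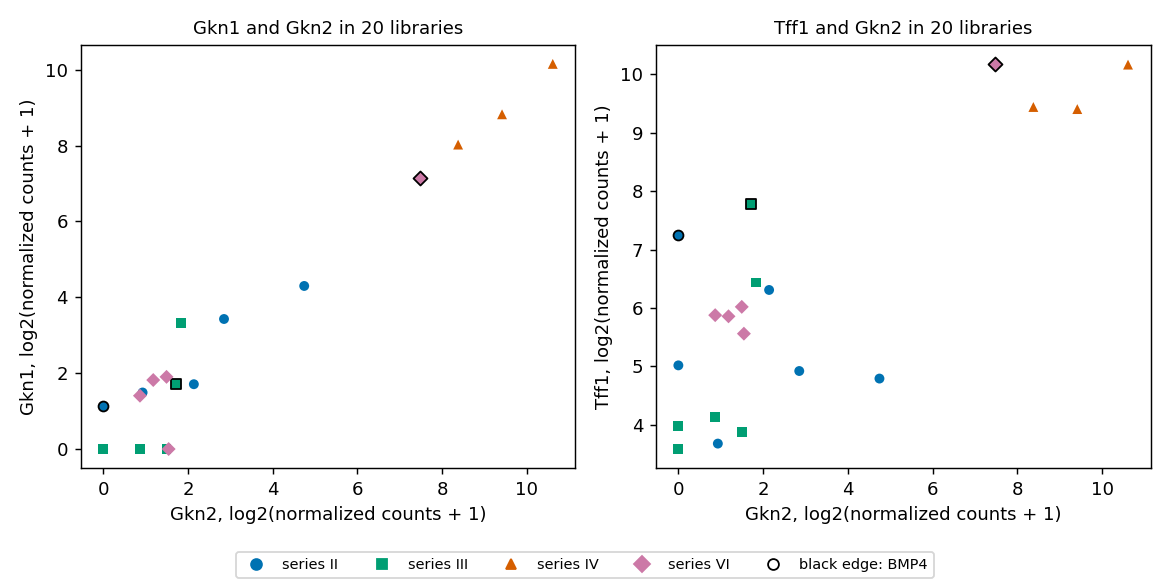
Gkn1 (left) and Tff1 (right) against Gkn2 in the 20 libraries of the BMP table, all as log2(normalized counts + 1), with colours for the replicate series and a black edge for BMP4 libraries. The 3 series IV libraries and BMP4 of series VI lie together at the upper end of the left panel, while the BMP4 libraries lie high on the Tff1 axis for their Gkn2 values in the right panel.

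Tff2, the trefoil peptide of mucous neck cells, was low throughout and followed the same libraries. It was at 0.888, 0.83, 27.5 and 0 in untreated II, III, IV and VI, and at 1.14, 2.56, 10.6 and 0 with BMP2. It was at 6.23, 3.38 and 130 with BMP3 (II, III, IV) and at 1.19, 2.28 and 16.8 with BMP4 (II, III, VI). With BMP5 and BMP7 it was at 1.81 or less. BMP2 IV, at 10.6, is the lowest of the series IV values and lies below BMP4 VI.

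In a fit with terms for treatment and series, the fitted range between the 4 series was largest for Muc5ac, Gkn2 and Gkn1, which took ranks 1, 2 and 3 of the 14746 genes. Their ranges were 9.74, 8.27 and 7.82 on the log2(value + 1) scale. Tff1 took rank 11 with a range of 5.01, Tff2 rank 20 with 3.96 and Psca rank 52 with 2.91. Series IV lay above series II by 8.08 for Muc5ac, 7.48 for Gkn2, 6.65 for Gkn1, 4.65 for Tff1, 3.55 for Tff2 and 2.91 for Psca. Cym took rank 98, and its highest term was that of series VI, 2.33 above series II. Ctse took rank 349 with a range of 1.63, Anxa10 rank 2296 with 0.79 and Gkn3 rank 3783 with 0.59. The series was part of how these genes were chosen, so these values are descriptions and nothing is read from them. For the same reason nothing is read from the 9 of the 10 gastric genes that lay past an adjusted p of 0.05 between series, where 37.8% of all genes did.

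Other stomach genes were set beside the series difference from lists named in the methods. Mucl3, a mucin-like gene of surface epithelium, was at 403 to 858 normalized counts in series IV and 1170 in BMP4 VI, against 11.6 to 368 in the other 16 libraries. Gast, the hormone gene of antral G cells, was at 21.2 to 54.1 in series IV and at 4.79 in BMP4 VI, against 0 to 7.95 in the others. Series IV was thus higher in both, and BMP4 VI in Mucl3 but not in Gast. Gast was singled out after its values were seen. The hormone genes Ghrl and Sst leaned the other way, with overlap. Ghrl was at 130 to 206 in series IV and 175 in BMP4 VI, against 191 to 594 in the other 16 libraries. Sst was at 81.2 to 172, 96.9 and 135 to 309 in the same order. BMP4 VI thus lay below the other 16 libraries in both, while series IV overlapped with them. The summed level of the 12 measured gastric surface and identity genes of 14 listed did not set series IV apart. It was 1680 to 9587 there, 5575 in BMP4 VI and 1020 to 11101 in the others. The summed level of the 10 measured gastric gland genes of 18 listed was 352 to 596 in series IV, 317 in BMP4 VI and 441 to 845 in the other 16 libraries. Col1a2, a fibrillar collagen gene of mesenchymal cells, was among the genes singled out after their values were seen. It was at 2.63 to 16.5 in series IV, 0 in BMP4 VI and 0 to 1.85 in the other 16 libraries. Col1a2 lay below the floor in every library outside series IV, and its lowest series IV value was within the floor's range of 2.48 to 3.84. Its partner Col1a1 was at 2.63 to 19.5, 1.2 and 0 to 20.5 in the same order, so series IV lay within the range of the others. Sox2 was at 0 to 1.77 in series IV and at 0 in the other 17 libraries, below the floor throughout. The summed level of the 12 mesenchymal and immune genes, all measured, was 873 to 1003 in series IV, 1119 in BMP4 VI and 778 to 1188 in the other 16 libraries. The part of other cell types or of tissue carried over in the series difference was not tested. Muc5ac and Gkn2 were listed at 0 TPM in all 6 libraries of the TGFb table, and Gkn1 reached at most 0.0501 TPM there.

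None of the surface and neck transcripts Muc5ac, Gkn1, Gkn2 and Tff2 passed the test against untreated organoids with any BMP ligand. Outside series IV and BMP4 VI, Muc5ac reached at most 7.11 and Tff2 at most 6.23, below the filter mean of 10. Both genes thus entered the test only through those libraries, and no absence of a ligand effect is read from it. By limma on all genes, the log2 changes of the 4 transcripts with BMP5 and BMP7 ran from -3 (Gkn2, BMP5) to -0.83 (Tff2, BMP7). Their standard errors were 1.22 to 2.59. The smallest adjusted p among these 8 was 0.329, for Gkn1 with BMP7. With BMP3 the 4 changes ran from 1.4 to 2.35, each with an adjusted p of 1. The 95% interval for Muc5ac with BMP2 ran from -4.99 to 5.07, so changes of that size would not have been detectable in this fit. The fit held no series term, so its standard errors include the difference between series IV and the others. Within series IV, Muc5ac was at 618 with BMP2 and 680 untreated. The changes with BMP5 and BMP7 set groups without a series IV library against an untreated group that has one.

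Cym was the gene with the widest span between ligands. It was at 2.66, 0, 4.44 and 26.4 normalized counts in untreated II, III, IV and VI. With BMP5 it was at 2300, 4230 and 9230 in II, III and VI, and with BMP7 at 1110, 1230 and 3120. Every BMP5 and BMP7 library lay above every other library of the table. With BMP2 Cym was at 32.9, 12.8, 2.35 and 170 in II, III, IV and VI, and with BMP4 at 23.7, 22.8 and 53.9 in II, III and VI. With BMP3 it was at 0, 2.53 and 10.5 in II, III and IV. BMP2 and BMP4 thus lay between untreated and BMP5 or BMP7 on average, with BMP2 III and IV and BMP4 II and III inside the untreated range, which reached 26.4.

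The mean of Cym was 8.38 ± 12.2 normalized counts untreated (SD, n = 4), 5253 ± 3577 with BMP5 (SD, n = 3) and 1820 ± 1127 with BMP7 (SD, n = 3). On the log2(value + 1) scale its fitted change was 9.86 (SE 1.13) with BMP5, 8.39 (SE 1.13) with BMP7, 2.72 (SE 1.13) with BMP4, 2.24 (SE 1.05) with BMP2 and -0.49 (SE 1.13) with BMP3. No p is given for Cym, since its response to ligands is why it was chosen. Within series VI, where the untreated library held 32 Cym reads, Cym was 350 times as high with BMP5 and 118 times with BMP7. The same ratio was 6.44 with BMP2 and 2.04 with BMP4. In series IV, where the untreated library held 5 reads, it was 0.529 with BMP2 and 2.37 with BMP3. In each of the 5 groups with a series VI library, that library held the highest Cym value. Leaving out BMP2 IV raised the fitted BMP2 change to 3.16. BMP5 lay above BMP7 by 1.47 (SE 1.21, 95% interval -1.07 to 4.00). BMP5 was above BMP7 in all 3 shared series. The genes most like Cym in level over the 20 libraries were Cfi (complement factor I, r = 0.919), Lrrc4 (r = 0.915) and Tnfsf13b (the cytokine BAFF, r = 0.901).

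**Figure D3:**
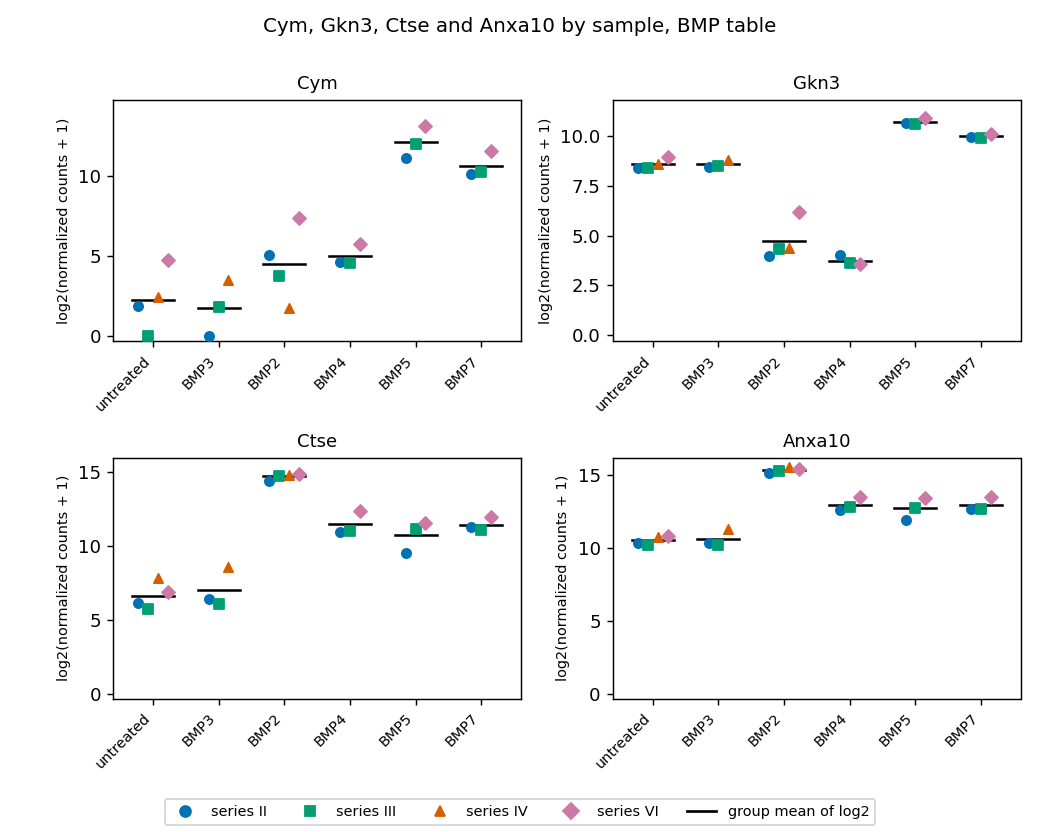
Normalized counts of Cym, Gkn3, Ctse and Anxa10 on the log2(value + 1) scale in the 20 libraries of the BMP table, with colours for the replicate series and bars for group means of the log2 values. Cym is highest with BMP5 and BMP7, Gkn3 is low with BMP2 and BMP4 and high with BMP5 and BMP7, and Ctse and Anxa10 are highest with BMP2.

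Gkn3, the gastrokine of mucous neck cells, moved in opposite directions with different BMPs. It was at 338, 342, 389 and 502 normalized counts in untreated II, III, IV and VI. With BMP2 it was at 14.8, 19.2, 20 and 72.1 in the same order, and with BMP4 at 15.4, 11.4 and 10.8 in II, III and VI. With BMP5 it was at 1610, 1540 and 1940, and with BMP7 at 1010, 964 and 1110. The untreated libraries overlapped with no library of these 4 ligands. With BMP3 it was at 354, 359 and 450 in II, III and IV, within the untreated range.

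By limma, Gkn3 fell by 3.88 on the log2 scale with BMP2 (SE 0.32, adjusted p = 2.27e-09) and by 4.86 with BMP4 (SE 0.34, adjusted p = 1.32e-09). It rose by 2.12 with BMP5 (SE 0.34, adjusted p = 0.000158) and by 1.4 with BMP7 (SE 0.34, adjusted p = 0.00429). Without all series III libraries, the BMP7 change was 1.39 and did not pass (adjusted p = 0.0642). The change with BMP3 was -0.01 (SE 0.34, 95% interval -0.73 to 0.71). In each shared series Gkn3 was lower than untreated with BMP2 and BMP4 and higher with BMP5 and BMP7. Series IV and BMP4 VI, which stood apart in surface mucous transcripts, did not stand apart here. Gkn3 and Gkn2 deviated from their group means with r = -0.129 over the 20 libraries. The genes most like Gkn3 in level were Gprc5b (r = 0.968), Mpzl2 (r = 0.968) and Mindy4 (r = 0.966).

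Ctse, cathepsin E, an aspartic protease of gastric surface cells, rose with 4 of the 5 BMPs and most with BMP2. It was at 71, 52.3, 235 and 116 normalized counts in untreated II, III, IV and VI. With BMP2 it was at 21700, 28000, 29300 and 29900 in the same order. With BMP4 it was at 2000, 2110 and 5380 in II, III and VI, with BMP5 at 757, 2290 and 3010, and with BMP7 at 2500, 2180 and 4000. All libraries of these 4 ligands lay above all untreated ones, and the BMP2 libraries lay above all others. With BMP3 Ctse was at 87.2, 67.6 and 382 in II, III and IV. The highest untreated and BMP3 values were those of series IV.

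The limma change of Ctse was 8.06 with BMP2 (SE 0.54, adjusted p = 1.20e-10), a 266-fold rise on this scale. It was 4.80 with BMP4 (SE 0.58, adjusted p = 8.13e-07), 4.10 with BMP5 (SE 0.58, adjusted p = 3.95e-05) and 4.78 with BMP7 (SE 0.58, adjusted p = 5.42e-06). With BMP3 it was 0.38 (SE 0.58, adjusted p = 1). Within series II, III, IV and VI, Ctse with BMP2 was 306, 535, 125 and 258 times the untreated value of the same number. The lowest of these 4 ratios came from series IV, whose untreated library was the highest.

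Anxa10, annexin A10, a calcium-dependent phospholipid-binding protein of gastric epithelium, followed Ctse from a higher untreated level. It was at 1300, 1180, 1760 and 1840 normalized counts in untreated II, III, IV and VI, and at 36000, 39300, 47700 and 44300 with BMP2. It was at 6270, 7180 and 11600 with BMP4 (II, III, VI), at 3990, 6890 and 11200 with BMP5, and at 6650, 6450 and 11700 with BMP7. As for Ctse, untreated libraries overlapped with none of these 4 ligands and BMP2 overlapped with no other group. With BMP3 it was at 1320, 1180 and 2530 in II, III and IV. Its limma change was 4.80 with BMP2 (SE 0.30, adjusted p = 4.83e-11), 2.43 with BMP4 (adjusted p = 2.53e-06), 2.18 with BMP5 (adjusted p = 6.31e-05) and 2.41 with BMP7 (adjusted p = 1.55e-05), the last 3 with an SE of 0.32. With BMP3 it was 0.08 (SE 0.32, 95% interval -0.60 to 0.76). Over the 20 libraries Ctse and Anxa10 had r = 0.990, and Anxa10 was the gene most like Ctse. Those most like Anxa10 were Hyal2 (r = 0.993), Junb (an AP-1 subunit, r = 0.993) and Sbno2 (r = 0.992). Libraries of one ligand share its response, so such r values describe the 6 groups more than single libraries.

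Tff1, the trefoil peptide of surface mucous cells, differed between series and, within series, with BMP4. It was at 29.3, 16.6, 678 and 57.8 normalized counts in untreated II, III, IV and VI. With BMP4 it was at 151, 218 and 1160 in II, III and VI. BMP4 II and III lay above untreated II, III and VI but below untreated IV. The BMP4 values were 5.15, 13.1 and 20.1 times the untreated ones of series II, III and VI. By limma over all replicates the change was 2.32 (SE 1.37, adjusted p = 0.148), which did not pass. With the replicate number as a block, which the deviations of the BMP4 libraries allow, it was 3.40 (adjusted p = 2.80e-05). Without untreated IV it was 3.42 (adjusted p = 0.0298), and without all of series IV 3.42 (adjusted p = 0.000751). Without all of series IV and BMP4 VI it was 2.53 (adjusted p = 0.00416). Without BMP4 VI alone it was 1.43 (adjusted p = 0.439), and with the block and without BMP4 VI 2.90 (adjusted p = 0.000363).

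With the other ligands Tff1 did not pass. It was at 78.3, 85.7, 695 and 57 with BMP2 (II, III, IV, VI), which is 2.67, 5.16, 1.03 and 0.986 times untreated in the same series, with a limma change of 0.93 (SE 1.27, adjusted p = 0.523). It was at 26.7, 11 and 1150 with BMP3, at 31.4, 14.8 and 63.9 with BMP5 and at 11.8, 13.7 and 46.2 with BMP7. BMP5 values were 0.892 to 1.11 times and BMP7 values 0.403 to 0.825 times the untreated ones of their series. The genes most like Tff1 in level were Mucl3 (r = 0.928), Col4a1 (a basement membrane collagen, r = 0.875) and Psca (r = 0.860).

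Psca, a GPI-anchored surface antigen of gastric and other epithelia, lay above the untreated library of its series with BMP4, as it did with BMP5 and BMP7. It was at 12.4, 17.4, 138 and 38.8 in untreated II, III, IV and VI, and at 27.3, 38.8 and 94.5 with BMP4 (II, III, VI). The BMP4 libraries were 2.20, 2.23 and 2.44 times the untreated ones of their series. In II, III and VI the same ratios were 2.5, 1.7 and 1.2 with BMP5 and 1.7, 1.7 and 1.3 with BMP7. With BMP2 they were 3.7, 1.4, 0.88 and 1.3 in II, III, IV and VI, and with BMP3 1.4, 0.73 and 1.5 in II, III and IV. By limma over all replicates the change with BMP4 was 0.48 (SE 0.84, adjusted p = 0.642), and with the replicate block 1.11 (adjusted p = 0.00753). Without all of series IV it was 1.15 (adjusted p = 0.0484), and without untreated IV alone 1.15 (adjusted p = 0.227). Without BMP4 VI alone it was -0.03 (adjusted p = 0.984), and with the block and without BMP4 VI 0.93 (adjusted p = 0.0448). Without series IV and BMP4 VI together it was 0.65 (adjusted p = 0.251), which did not pass. Psca was at 45.4, 24.3, 122 and 50.6 with BMP2, at 16.9, 12.7 and 211 with BMP3, at 30.5, 29.6 and 45.6 with BMP5, and at 20.9, 29.1 and 49.1 with BMP7. None of these 4 groups passed against untreated, with adjusted p from 0.491 to 1.

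**Figure D4:**
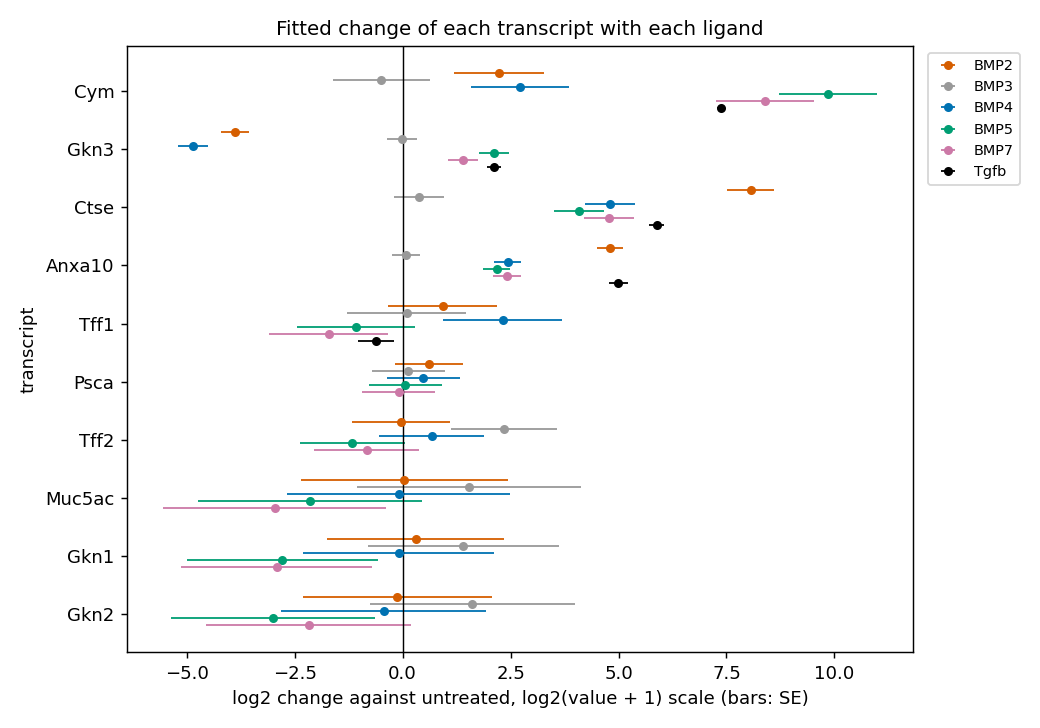
Fitted change of each of the 10 transcripts against untreated organoids of the same table, on the log2(value + 1) scale, with bars for 1 SE. Tgfb is shown for the 5 transcripts above its filter; Cym, Gkn3, Ctse and Anxa10 lie away from 0 with short bars, while Muc5ac, Gkn1 and Gkn2 have bars of several log2 units.

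Among the 9 genes other than Cym, 3 passed with BMP2, 2 higher and 1 lower, where 75.1% of all genes tested passed, 36.8% higher and 38.4% lower. With BMP4 3 passed, 2 higher and 1 lower, against 65.1% of all genes, 33.7% higher and 31.4% lower. With BMP5 3 passed, all higher, against 26.3% of all genes, 16.5% higher and 9.87% lower. With BMP7 3 passed, all higher, against 32.4% of all genes, 19.2% higher and 13.2% lower. The 3 genes were Gkn3, Ctse and Anxa10 with each ligand. Their share, 3 of 9, is below the background with BMP2 and BMP4 and near it with BMP5 and BMP7. Counting Cym, the median change of the 10 was 0.46, 0.58, -0.51 and -0.46 with BMP2, BMP4, BMP5 and BMP7, beside -0.03, 0.04, -0.03 and -0.05 over all genes.

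With BMP3 none of the 10 genes passed, beside 0% of all genes tested by limma. At an unadjusted p under 0.05 limma gave 110 genes of 14746, edgeR on recovered reads called 0 genes and DESeq2 called 1.

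The 4 ligands other than BMP3 were then compared with each other at the matched dose and time, over 6 pairs that were added after values had been seen. Over all 4 at once, limma's moderated F-test passed for 3 of the 9 genes other than Cym, Gkn3, Ctse and Anxa10, where 82% of all genes passed. Tff1 missed the threshold (adjusted p = 0.0560). Between BMP2 and BMP4, where 66.8% of all genes differed (33.4% higher and 33.4% lower with BMP2), Ctse was higher with BMP2 by 3.25 (SE 0.58, adjusted p = 6.81e-05) and Anxa10 by 2.37 (SE 0.32, adjusted p = 3.01e-06). Gkn3 was lower with BMP4 than with BMP2 by a difference of 0.98 (SE 0.34, adjusted p = 0.0173). That Gkn3 difference did not pass without BMP4 III (adjusted p = 0.0528), without BMP4 VI (0.0590), without series III (0.0866), without series VI (0.0599, with a difference of 0.40), without series IV and BMP4 VI together (0.0638) or with the block and without BMP4 VI (0.0803).

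BMP2 gave more Ctse than BMP5 by 3.96 (SE 0.58, adjusted p = 8.83e-06) and than BMP7 by 3.27 (SE 0.58, adjusted p = 7.90e-05). For Anxa10 these differences were 2.62 (adjusted p = 1.11e-06) and 2.39 (adjusted p = 3.81e-06), each with an SE of 0.32. The difference in Gkn3 was -6.00 for BMP2 minus BMP5 and -5.28 for BMP2 minus BMP7 on the log2 scale, so it was lower with BMP2. It was -6.98 for BMP4 minus BMP5 and -6.26 for BMP4 minus BMP7, lower with BMP4. All 4 of these Gkn3 differences passed, with adjusted p from 5.04e-11 to 7.39e-10. Of all genes, 65% passed for BMP2 against BMP5 (32.2% higher, 32.8% lower) and 62.8% for BMP2 against BMP7 (31.4% each way). The shares were 60.1% for BMP4 against BMP5 (28.4% higher, 31.7% lower) and 59.8% for BMP4 against BMP7 (28.4% higher, 31.4% lower).

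BMP4 and BMP7 differed by 0.02 in Ctse (95% interval -1.28 to 1.32) and by 0.02 in Anxa10 (95% interval -0.70 to 0.74). Neither difference passed, and the interval for Ctse reaches past 1 log2 unit in both directions. Tff1 was higher with BMP4 than with BMP7 by 4.03 (SE 1.47, adjusted p = 0.0242). It did not pass without BMP4 VI (3.14, adjusted p = 0.107), nor without BMP7 II (0.0732), BMP7 III (0.0656), series II (0.107), series III (0.0906) or series VI (0.114). It passed with the replicate block (4.03, adjusted p = 8.90e-06), without series IV (4.03, 0.000211) and without series IV and BMP4 VI together (3.14, 0.000945). Tff1 with BMP4 exceeded Tff1 with BMP5 by 3.39 (SE 1.47, adjusted p = 0.0537). That difference passed with the replicate block (adjusted p = 5.00e-05), without series IV (3.39, 0.000871) and without series IV and BMP4 VI together (2.5, 0.00468).

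BMP5 and BMP7 differed in none of the 9 genes, where 0.0136% of all genes passed (0.00678% each way). Gkn3 was higher with BMP5 by 0.72 (SE 0.37, 95% interval -0.06 to 1.49, adjusted p = 1). All 3 BMP5 libraries, at 1540 to 1940, lay above all 3 BMP7 libraries, at 964 to 1110. Ctse differed by -0.69 (95% interval -1.99 to 0.61) and Anxa10 by -0.23 (95% interval -0.96 to 0.49), BMP5 minus BMP7.

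In the TGFb table, Cym, Ctse, Anxa10 and Gkn3 were higher with Tgfb than in its own untreated samples. These 4 genes were also higher with BMP5 and BMP7. Ctse and Anxa10 were higher with BMP2 and BMP4 as well, and most with BMP2. Cym was at 0.156, 0.183 and 0.147 TPM in untreated I, II and III and at 217, 172 and 190 TPM with Tgfb. Ctse was at 0.170, 0.0241 and 0 TPM untreated and at 61.8, 48.2 and 78.3 TPM with Tgfb. Anxa10 was at 8.35, 9.83 and 13.5 TPM untreated and at 319, 322 and 461 TPM with Tgfb. Gkn3 was at 26, 25.5 and 21.5 TPM untreated and at 124, 118 and 87.0 TPM with Tgfb. Tgfb and untreated libraries overlapped for none of these 4 genes.

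The limma change with Tgfb was 5.88 for Ctse (SE 0.18, adjusted p = 4.63e-06), 5.00 for Anxa10 (SE 0.21, adjusted p = 1.21e-05) and 2.12 for Gkn3 (SE 0.15, adjusted p = 7.69e-05), on the log2(TPM + 1) scale. It was 7.38 (SE 0.10) for Cym, given without a test. With a pseudocount of 0.1 or 5 in place of 1, the Cym change was 9.52 or 5.25 and the Ctse change 8.69 or 3.72. Of the 4 tested genes other than Cym, 3 passed, all higher, where 56.7% of all genes passed and 27.4% passed as higher. Per transcript length, the mean level with Tgfb was 368 ± 81.0 TPM for Anxa10, 193 ± 22.5 for Cym, 110 ± 19.9 for Gkn3 and 62.8 ± 15.1 for Ctse (SD, n = 3 each). In untreated samples the order was Gkn3 (24.3 ± 2.42), Anxa10 (10.6 ± 2.64), Cym (0.162 ± 0.0190) and Ctse (0.0646 ± 0.0918). Neighbours in the order with Tgfb did not overlap between libraries, and of the neighbours in the untreated order Cym and Ctse did.

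Tff1 was at 2.55, 1.5 and 0.427 TPM untreated and at 0.511, 0.113 and 1.11 TPM with Tgfb. These ranges overlapped, and the change was -0.61 (SE 0.41, adjusted p = 0.250). Without both libraries of replicate III it was -1.20 (adjusted p = 0.0442). Psca was at 0.315, 0.222 and 0.317 TPM untreated and at 1.06, 2.02 and 1.56 TPM with Tgfb, without overlap. Its mean lay below the filter of 1 TPM. With a filter of 0.5 TPM, added after values had been seen, its change was 0.97 (SE 0.18, adjusted p = 0.00502). Tff2 lay at 0.434 TPM or less in all 6 libraries. The replicate series of the TGFb table differed in none of the 5 tested genes, where 0.00772% of all genes passed.

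**Figure D5:**
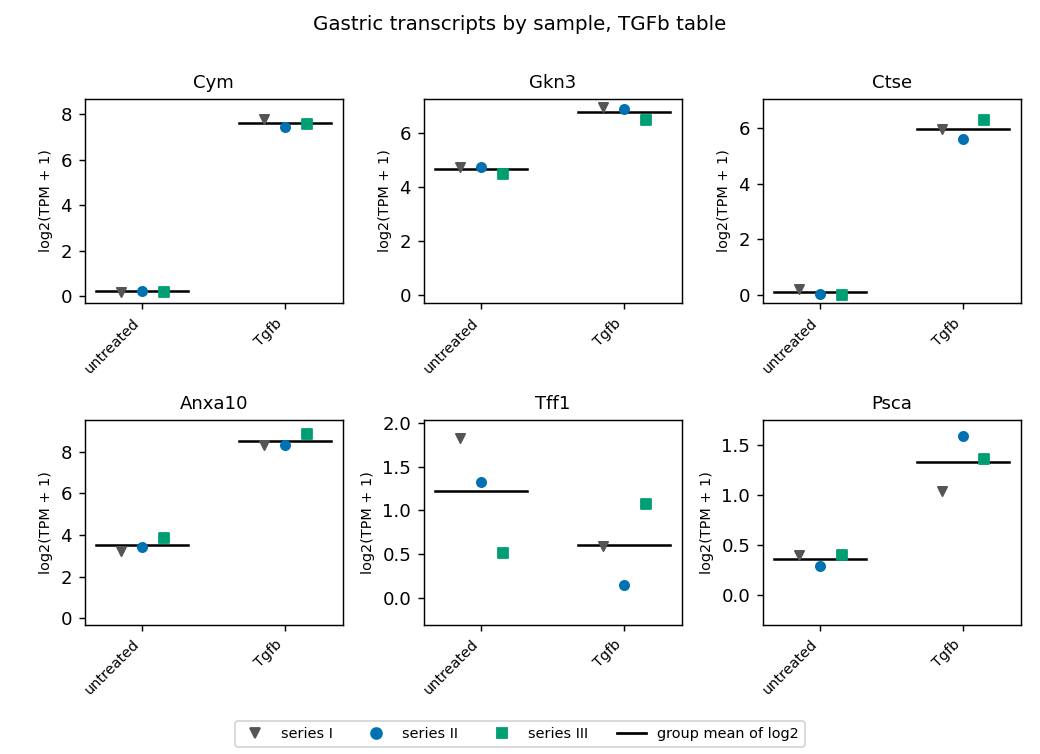
TPM of 6 transcripts on the log2(TPM + 1) scale in the 3 untreated and 3 Tgfb-treated libraries of the TGFb table, coloured by replicate, with bars for group means of the log2 values. Cym, Gkn3, Ctse, Anxa10 and Psca are higher in all 3 Tgfb libraries, and the Tff1 values of the groups overlap.

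Because the tables were scaled separately, the changes with BMPs and with Tgfb are set side by side and were not tested against each other. Gkn3 rose by 2.12 in both the BMP5 and the Tgfb comparison and fell with BMP2 and BMP4. Anxa10 rose by 4.80 with BMP2 and 5.00 with Tgfb. Comparisons within the BMP table share their untreated samples.

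Other stomach genes, from the lists, changed along with these transcripts in part. Of 14 further genes of the gastric surface and of gastric identity, 10 passed the filter in the BMP table. With BMP2 6 were higher and 2 lower (median change 2.57), with BMP4 7 higher and none lower (1.66), with BMP5 3 higher and 1 lower (0.41), and with BMP7 4 higher and 1 lower (0.57). Over all genes the median changes were -0.03, 0.04, -0.03 and -0.05, and the shares that passed were 75.1% (36.8% higher, 38.4% lower), 65.1% (33.7%, 31.4%), 26.3% (16.5%, 9.87%) and 32.4% (19.2%, 13.2%). The counts of 8 and 7 of 10 with BMP2 and BMP4 were near that background, and no result about the list is read from the counts. With BMP3 none passed (0.32). With Tgfb 5 were tested, 3 higher and 2 lower (2.38, beside -0.04 over all genes, of which 27.4% were higher and 29.3% lower). The pore-forming gasdermin gene Gsdma rose by 5.43 with BMP2 (SE 0.49, adjusted p = 8.57e-09). Sox21, a Sox-family transcription factor, rose by 5.01 with BMP2 (SE 0.41, adjusted p = 2.30e-09), and the forkhead factor Foxq1 by 3.87 with Tgfb (SE 0.07, adjusted p = 1.71e-06). Vsig1, a junctional adhesion gene of gastric epithelium, had one of the 3 largest ranges between series in this list, 1.32, after Mucl3 with 4.02 and Nkx6-3 with 1.4.

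Of 18 gland genes, 10 were in the BMP table and 5 passed its filter. With BMP2 2 were higher and 2 lower (median change -0.53), with BMP4 none higher and 2 lower (-0.28), with BMP5 1 higher (0.17) and with BMP7 1 higher and 2 lower (-0.34). The shares of all genes called with these ligands were 75.1%, 65.1%, 26.3% and 32.4%, and their median changes -0.03, 0.04, -0.03 and -0.05, so with 5 genes no result about the list is read from the counts. Atp4a, the catalytic subunit of the parietal-cell proton pump, fell by 4.06 on the log2 scale with BMP2 (SE 0.41, adjusted p = 3.40e-08) from a level of at most 34.7 normalized counts. Pgc, progastricsin of chief cells, fell by 2.63 with BMP2 (SE 0.25, adjusted p = 1.44e-08). Slc26a9, a chloride transporter, rose by 3.21 with BMP7 (SE 0.58, adjusted p = 0.000347). With BMP3 none of the 5 passed (-0.08), and with Tgfb 1 of 3 tested was higher and none lower (0.36). Their part in the changes of the 10 transcripts was not tested.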

How the data were processed

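In the BMP table the deposited values are a normalized signal made by the authors: counts per gene, each sample divided by a size factor of its own, given to 3 digits. This was read from the values, since 100% of 180721 values at or below 20 reads were whole multiples of 1 step (tolerance 0.05 reads plus 0.5%). In the TGFb table the deposited values are TPM, since each column summed to 1000000. Per the submitters' processing notes, Trim Galore, Salmon, DESeq2 and build GRCm39 were used, with no roles or versions. Per the labels' protocols, a KAPA mRNA kit was used and more than 1 sequencing run was needed; which sample went into which run is not given in the sources used here. No column of per-sample values was left unmapped.

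The main test was limma's moderated test (limma 3.58.1, R 4.3.3) on log2(value + 1) with an intensity trend, two-sided, with Benjamini-Hochberg adjustment over all genes tested and a threshold of 0.05. Intervals are at 95%. All 6 groups of the BMP table entered 1 fit. Genes at a mean of at least 10 normalized counts (14746 of 29413) or 1 TPM (12959 of 55416) were tested. A change on this scale understates that of low genes. The design foresaw edgeR for raw counts; no table held them, so edgeR 4.0.16 and DESeq2 1.42.0 on recovered reads were alternatives. Scripts were tested on simulated data.

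The 10 genes, the 6 lists (gastric glands, gastric surface and identity, intestinal identity, pancreatic acinar, squamous, mesenchymal and immune) and the tests were chosen with earlier results of these data known. The rule for naming took all 10 genes, per list the 3 largest passing ligand changes and the 3 largest series ranges, and the 3 genes most correlated with each. Not all that fell under this rule is printed. Series ranges are given for the gastric surface and identity list only, and correlated genes for part of the 10. Genes named as stomach or intestinal markers in the text without a test were chosen after their values were seen. Same-numbered libraries deviated together from their group means for BMP3 (r = 0.281 to 0.553), BMP4 (0.190 to 0.225), BMP5 (0.158 to 0.262) and BMP7 (0.236 to 0.294), so their numbers pair them. For BMP2 r was 0.195, 0.421 and 0.308 in II, IV and VI but 0.0182 in III, so the libraries deviated together except in III. For Tgfb (0.00405 to 0.0696) they share only a number.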

Additional observations from a re-analysis of the deposited data

Results flagged for a closer look

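In groups of 4 libraries, a library was singled out where its gap to the nearest other was larger than Dixon's test allows at the 95% level. Chance gives about 1 such library in 20 groups, and 11 were found in the 20 groups of 4 checked, 9 of them in series IV and 2 in series VI. The genes were chosen in part for being high in a whole series, so the number found restates that choice, and nothing is read from setting it against chance. Among untreated libraries, series IV stood apart in Muc5ac (680 normalized counts), Gkn1 (453), Gkn2 (680), Tff1 (678) and Tff2 (27.5). Among BMP2 libraries, series IV stood apart in Muc5ac (618), Gkn1 (260), Gkn2 (331) and Tff1 (695). Series VI stood apart in Cym among untreated libraries (26.4) and in Gkn3 among BMP2 libraries (72.1). Groups of 3, which include BMP3 and BMP4, were not checked this way.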

How the results depend on the processing

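No fitted change that passed turned its direction under the alternatives run. Of the 9 genes other than Cym, 3 passed with BMP5 and with BMP7 with the replicate block as without it, and 3 of 4 tested with Tgfb. With BMP4 the count went from 3 to 5 with the block, with or without BMP4 VI, since Tff1 (3.40) and Psca (1.11) then passed, and leaving out replicates gave 3 to 5, with 5 without series IV. For BMP4 against BMP5 it went from 1 to 2 with the block, with or without BMP4 VI, with quantile normalization and without series IV and BMP4 VI, and leaving out replicates gave 1 to 2, with 2 without series IV. For BMP4 against BMP7 it went from 2 to 1 in the leave-outs named with Tff1 there. The block also took Tff1 past the threshold for BMP2 against BMP4 (-2.48; without BMP4 VI -1.97) and BMP2 against BMP7 (1.55), and Muc5ac for BMP4 against BMP7 (2.87, adjusted p = 0.0429), which did not pass with the block and without BMP4 VI (0.88, 0.411). Without series IV, Tff1 passed for BMP2 against BMP4 (-2.20, 0.0154) and BMP2 against BMP7 (1.83, 0.0414). Without series IV and BMP4 VI, the latter passed (1.83, 0.0152) and the former did not (-1.31, 0.0978). Over all alternatives the adjusted p ran from 2.80e-05 to 0.527 for Tff1 with BMP4, from 0.00753 to 0.984 for Psca with BMP4, from 1.02e-05 to 0.0642 for Gkn3 with BMP7, from 0.00391 to 0.0866 for Gkn3 in BMP2 against BMP4, from 8.90e-06 to 0.114 for Tff1 in BMP4 against BMP7 and from 0.0442 to 0.641 for Tff1 with Tgfb. Scaling every sample to the same total moved the median change of all genes to -0.49 with BMP2 and -0.35 with BMP4, and Gkn3, Ctse and Anxa10 then changed by -4.32, 7.60 and 4.34 with BMP2 and by -5.24, 4.41 and 2.03 with BMP4. Depth limits Muc5ac, Gkn1, Gkn2 and Tff2, which lay at or under the floor in most libraries outside series IV.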

Other observations

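Some genes of squamous epithelium, as in the forestomach and oesophagus, also changed with the ligands. Of 12 listed genes 8 were tested in the BMP table, and with BMP2 6 were higher and 1 lower (median change 3.37, beside -0.03 over all genes). With BMP4 5 were higher and 1 lower (2), and with BMP5 and with BMP7 5 were higher and none lower (2.08 and 2.21). Of all genes, 36.8% were higher and 38.4% lower with BMP2, 33.7% and 31.4% with BMP4, 16.5% and 9.87% with BMP5, and 19.2% and 13.2% with BMP7. In either direction 75.1%, 65.1%, 26.3% and 32.4% of all genes passed. The counts of 7 and 6 of 8 with BMP2 and BMP4 were near that background, and no result about the list is read from the counts. With BMP2 the keratins Krt14 and Krt6a rose by 9.19 (SE 0.61, adjusted p = 1.29e-10) and 7.67 (SE 0.57, adjusted p = 6.16e-10) by limma, and the cornified envelope gene Sprr1a by 4.92 (SE 0.32, adjusted p = 1.06e-10). The basal keratin Krt5 reached at most 3.80 normalized counts. With BMP3 none passed, and with Tgfb 2 of 3 tested were higher, beside 27.4% of all genes.

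Of the 16 intestinal identity genes, 13 were higher and 2 lower with BMP4 (median change 1.25, beside 0.04 over all genes), and 4 were higher and 5 lower with BMP2 (0.06, beside -0.03). All genes passed at 65.1% with BMP4 and 75.1% with BMP2, so the share with BMP2, 9 of 16, lay below the background. The fatty acid binding protein gene Fabp2 rose by 3.61 with BMP4 (SE 0.27, adjusted p = 2.59e-09), and the intestinal transcription factor Cdx1 fell by 2.46 on the log2 scale with BMP2 (SE 0.12, adjusted p = 3.58e-12). With Tgfb 5 of 15 tested were higher and 8 lower, where 56.7% of all genes passed. Of 3 tested pancreatic acinar genes, 1 was lower with BMP2 (Clps, -1.93), 1 lower with BMP4, 1 higher with BMP5 and 1 higher with BMP7. Of all genes, 38.4% and 31.4% were lower with BMP2 and BMP4, and 16.5% and 19.2% higher with BMP5 and BMP7. With 3 genes, no result about the list is read from the counts. Ctrb1, a chymotrypsinogen gene, rose by 5.85 with Tgfb (SE 0.20, adjusted p = 6.11e-06 by limma). Of 5 tested mesenchymal and immune genes, 2 were higher and 2 lower with BMP2, and Vim, the mesenchymal filament gene, fell by 2.68 with BMP4 (SE 0.22, adjusted p = 7.92e-09).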
